A study of Mus musculus with 4 samples.

Results

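The genes described here are 10 genes of the Notch pathway, namely the 4 Notch receptors (Notch1, Notch2, Notch3 and Notch4), the 3 Fringe genes (Lfng, Mfng and Rfng) and the 3 nuclear or feedback genes Rbpj, Maml1 and Nrarp. They were taken by symbol, and each had 1 line in every library, out of 21827 genes analyzed. The libraries came from retinas of pHes1-EGFP mice, a transgenic line in which a 2.5-kb Hes1 promoter drives destabilized EGFP, and the labels give FVB/N as the strain. Retinal cells were dissociated with trypsin and sorted at postnatal day 1 (P1) or 4 (P4) into EGFP-positive cells (pHes1_EPCs) and EGFP-negative cells (pHes1_ENCs), and all animals were untreated. There was 1 library for each fraction at each age (4 libraries), and how many animals were pooled is not given in the sources used here. Since EGFP reports the activity of a Hes1 promoter fragment, the fractions were defined by a Notch-responsive gene and not by cell identity.

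Notch receptors are single-pass membrane proteins that are activated by ligands of the Delta and Jagged families on a neighboring cell. Cleavage by ADAM proteases and then by gamma-secretase releases the intracellular domain, which binds the DNA-binding protein RBPJ and a Mastermind coactivator in the nucleus and turns on repressor genes such as Hes1 and Hes5. Fringe proteins extend O-fucose on the receptors in the Golgi and thereby change which ligands they respond to. In the developing retina Notch signaling is known to hold cells as progenitors and to favor Müller glia, the radial glia of the retina, over neurons.

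The values are FPKM (mapped fragments per kilobase of transcript, scaled to the size of the library). FPKM is divided by transcript length, so levels of different genes can be set side by side. Cufflinks gave a 95% interval for each value, which covers the counting and assignment of reads in that library and not the variation between animals or sorts. With 1 library in each group there was no spread between replicates and no test, so all differences are descriptions of these libraries. For the 10 genes the interval half-width ranged from 1.63% to 24.8% of the FPKM over the 40 values. In 8 of the 40, among them Mfng in all 4 libraries and Lfng and Nrarp in both pHes1_EPC libraries, the FPKM lay above its own interval, by at most 4.48% of the upper bound. A difference is log2(FPKM + 1) in one library minus that in the other, and a gene was listed as higher or lower when this difference was past 1 or -1, which is a 2-fold rule that understates the change of genes at low FPKM. Ratios are given from the FPKM themselves, with the range that the intervals allow.

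The fractions differed in the cells they held. Sums of FPKM are given for pHes1_ENCs first. The 12 Müller glia markers had sums of 547 and 1686 at P1 but 380 and 3173 at P4. By the 2-fold rule 9 of them were higher and 1 lower in pHes1_EPCs at P1, and 10 were higher and 0 lower at P4. The lower one was Clu, at 3.33 and 0.997, and Aqp4 was below 1 in every library. The 8 cell cycle markers had sums of 272 and 1173 at P1 but 71.4 and 485 at P4, so that pHes1_EPCs carried more proliferation transcripts at both ages. The 7 rod photoreceptor markers went the other way, with 727 and 46.4 at P1 against 4174 and 830 at P4. The 10 retinal progenitor markers had sums of 1280 and 3135 at P1 but 677 and 2347 at P4, and 6 and 9 of them passed the 2-fold rule upward in pHes1_EPCs. All 4 of the amacrine markers in the tables were lower in pHes1_EPCs at P1, with sums of 80.6 and 8.70, and 2 were lower at P4, with 69.4 and 16.4. Slc6a9 made 62.6 and 10.1 of these P4 sums, after 19.1 and 1.72 at P1. In pHes1_ENCs the others were lower at P4 than at P1, Gad1 (16.2 to 1.17), Gad2 (25.0 to 2.78) and Slc32a1 (20.4 to 2.84). At P4 Gad2 was at 5.43 in pHes1_EPCs, above its pHes1_ENC level. Genes of red blood cells summed to 185 and 502 in the pHes1_ENC libraries and to 0.568 and 6.65 in pHes1_EPCs. In these bulk libraries a smaller share of cells of a type and less RNA per cell cannot be told apart, and the part of cell make-up in the differences below was not tested.

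At P1, 4 of the 10 genes passed the 2-fold rule upward in pHes1_EPCs (Notch2, Notch3, Lfng and Nrarp) and 0 were lower. Over all genes analyzed 6.1% were higher and 6.79% lower at this age. At P4, 5 of the 10 genes were higher, the same 4 and Notch1, and 0 were lower, beside 9.85% and 5.42% of all genes. The median difference of the 10 genes was 0.47 at P1 and 1.20 at P4. Genes that reached an FPKM of 1 in any library are called expressed genes here, and they number 12940 and include 9 of the 10 (not Notch4). Among expressed genes 10.3% were higher and 11.5% lower at P1, 16.6% were higher and 9.15% lower at P4, and the medians were 0.02 and 0.15. In sum the 10 genes reached an FPKM of 209 in P1 pHes1_ENCs, 123 in P4 pHes1_ENCs and 403 in each pHes1_EPC library.

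**Figure D1:**
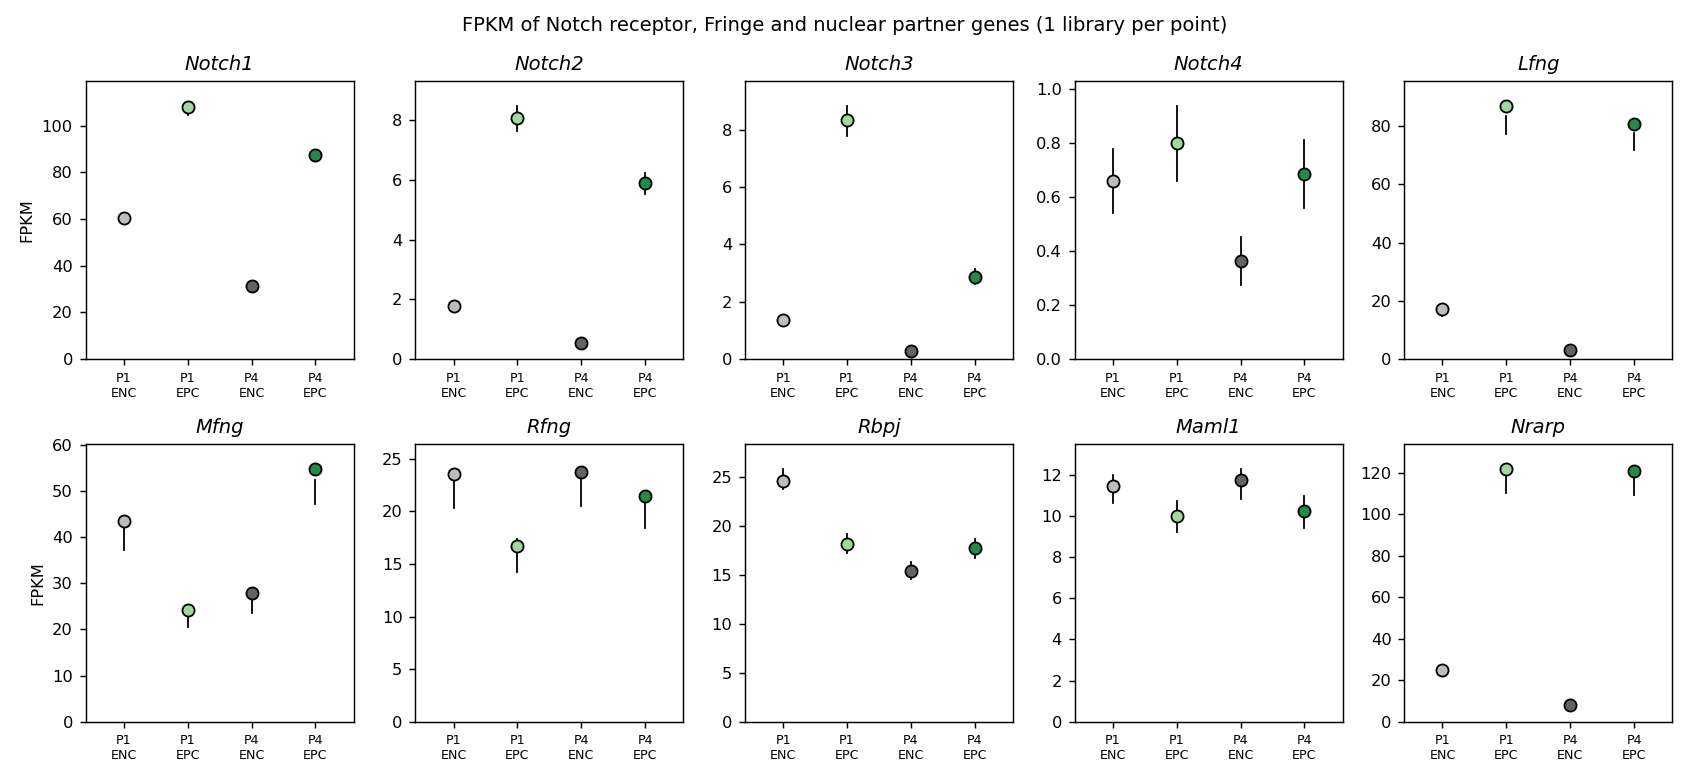
FPKM of each gene (vertical axis, from 0, with its own scale in each panel) in the 4 libraries (horizontal axis), where each point is 1 library and the line is the Cufflinks 95% interval. Lfng and Nrarp stand between 80.8 and 122 in both pHes1_EPC libraries and at or below 24.9 in both pHes1_ENC libraries, whereas the Maml1 points lie between 10.01 and 11.7.

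Notch1 was the most abundant receptor in every library. Its gene is on the minus strand at chr2:26313422-26359342 (NCBI37/mm9), with 34 exons in the longest annotated transcript. Notch1 FPKM was 60.5 in P1 pHes1_ENCs, 108 in P1 pHes1_EPCs, 31.4 in P4 pHes1_ENCs and 87.6 in P4 pHes1_EPCs. Both pHes1_EPC libraries were above both pHes1_ENC libraries, and no intervals overlapped. The ratio of pHes1_EPC to pHes1_ENC was 1.79 (1.72 to 1.85) at P1, under the 2-fold rule, and 2.79 (2.62 to 2.92) at P4. Between P1 and P4 Notch1 went to 0.519 of its level in pHes1_ENCs and to 0.809 in pHes1_EPCs. The libraries do not mark strand, and exons of the longest Notch1 transcript share 11.3% of their bases with the long noncoding RNA 0610009E02Rik and 4.36% with Gm13568, both on the other strand, so reads there cannot be told apart.

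Notch2 and Notch3, which are paralogs of Notch1, were expressed at lower levels and differed more between the fractions. Notch2 (chr3:97817461-97954290, plus strand, 34 exons) was at 1.78 in P1 pHes1_ENCs, 8.08 in P1 pHes1_EPCs, 0.538 in P4 pHes1_ENCs and 5.89 in P4 pHes1_EPCs (FPKM). Its ratio was 4.54 (3.94 to 5.25) at P1 but 10.96 (8.87 to 13.9) at P4, and these ranges do not overlap. Notch3 (chr17:32257838-32303797, minus strand, 33 exons) was at 1.36, 8.33, 0.289 and 2.88 in the same order. It was the receptor with the largest difference at P1 (log2 difference 1.98, against 1.71 for Notch2). At P4 the order was reversed, with 1.59 for Notch3 and 2.16 for Notch2, but the ranges of their ratios overlapped at both ages.

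Whether the Notch3 difference grew or shrank with age depends on the scale. On the log2(FPKM + 1) scale it went from 1.98 to 1.59. The ratio of FPKM went from 6.13 (5.11 to 7.41) to 9.94 (7.22 to 14.4), and these ranges overlap at their ends. The level itself fell in both fractions, to 0.345 of the P1 level in pHes1_EPCs and to 0.213 in pHes1_ENCs. In pHes1_EPCs this was a log2 difference of -1.27, and Notch3 was the only one of the 10 genes that fell more than 2-fold there. Exons of the longest Notch3 transcript share 6.07% of their bases with the noncoding RNA Gm17276 on the other strand.

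Notch3 is known as a receptor of mural cells and Notch4 as one of endothelial cells, and vessels run over the neonatal retina. Of 9 mural markers 7 were below an FPKM of 1 in every library, and Tbx18 was at or near 0. Rgs5 did not exceed 0.144, and Pdgfrb was 0.670 and 0.0829 in pHes1_ENCs and 1.68 and 1.52 in pHes1_EPCs. The mural sum ranged from 3.64 to 4.22 in pHes1_ENCs and from 5.10 to 5.79 in pHes1_EPCs, and Acta2 made 2.48 to 3.64 of it in the 4 libraries. Of 10 endothelial markers 6 were below 1 in every library, and in pHes1_EPCs 2 were higher and 1 lower at P1, with 3 higher at P4. Cdh5 and Emcn were listed at 0 in both P4 libraries, and Pecam1 did not exceed 0.142. The endothelial sum was 66.0 and 16.7 in pHes1_ENCs and 223 and 210 in pHes1_EPCs, of which Kdr, a growth factor receptor gene, made 46.9, 12.01, 209 and 189. Egfl7 was at 2.19 and 1.27 in pHes1_ENCs and at 9.52 and 15.4 in pHes1_EPCs. Flt1 was at 0.0658 and 0.110 in pHes1_ENCs and at 0.715 and 1.41 in pHes1_EPCs. Cldn5 was highest in P1 pHes1_ENCs, at 16.3, and did not exceed 4.06 elsewhere. The part of these cells in the receptor levels was not tested.

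Notch4 (chr17:34701240-34725488, plus strand, 30 exons) was near the lower end of detection. Its FPKM was 0.659 in P1 pHes1_ENCs, 0.798 in P1 pHes1_EPCs, 0.362 in P4 pHes1_ENCs and 0.686 in P4 pHes1_EPCs. P4 pHes1_ENCs stood below the others, whose intervals overlapped. The ratio at P4 was 1.89 (1.24 to 2.96), and the log2 difference was 0.31.

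Within the receptor family, the make-up of the transcripts moved with the fraction. Notch1 made 94.1% of the summed receptor FPKM in P1 pHes1_ENCs and 86.3% in P1 pHes1_EPCs. At P4 the shares were 96.4% and 90.3%. The difference was taken up by Notch2 and Notch3. Notch2 made 2.77% of the sum in P1 pHes1_ENCs and 6.45% in P1 pHes1_EPCs, and its P4 shares were 1.65% and 6.07%. Notch3 went from 2.11% to 6.64% at P1 but from 0.887% to 2.96% at P4, so its share in pHes1_EPCs was smaller at the later age whereas that of Notch2 was nearly the same. For 1 unit of Notch2 and Notch3 together there were 19.3 units of Notch1 in P1 pHes1_ENCs, 6.59 in P1 pHes1_EPCs, 38.0 in P4 pHes1_ENCs and 9.99 in P4 pHes1_EPCs.

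The Fringe genes, which encode the glycosyltransferases that modify Notch receptors, did not move together. Lfng (chr5:141083295-141091499, plus strand, 8 exons) had the largest log2(FPKM + 1) difference of the 10 genes at both ages, but at P1 the ratio of FPKM was larger for Notch3 (6.13), and so was the log2 difference with a pseudocount of 0.1 (2.53 for Notch3 and 2.34 for Lfng). Lfng FPKM was 17.0 in P1 pHes1_ENCs, 86.8 in P1 pHes1_EPCs, 3.15 in P4 pHes1_ENCs and 80.8 in P4 pHes1_EPCs. The pHes1_EPC levels of the 2 ages had overlapping intervals, whereas the pHes1_ENC level at P4 was 0.185 of that at P1. The log2 difference with age in pHes1_EPCs was -0.10 as deposited and -0.44 at the lowest under the alternatives in processing. The ratio was 5.10 (4.44 to 5.67) at P1 and 25.6 (19.4 to 31.0) at P4. Of the 12940 expressed genes, 77 including Lfng had a log2 difference at least as high at P1 (2.28), and 22 had one at P4 (4.30).

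Mfng (chr15:78586313-78603875, minus strand, 8 exons) changed direction between the ages. Its FPKM was 43.5 in P1 pHes1_ENCs, 24.2 in P1 pHes1_EPCs, 27.9 in P4 pHes1_ENCs and 54.8 in P4 pHes1_EPCs. At P1 the pHes1_EPC level was 0.557 (0.486 to 0.650) of that in pHes1_ENCs, and at P4 it was 1.96 times (1.70 to 2.22) as high. P4 pHes1_EPCs stood above the other libraries, and P4 pHes1_ENCs and P1 pHes1_EPCs had overlapping intervals. Neither difference passed the 2-fold rule, with log2 differences of -0.82 and 0.95. From P1 to P4 Mfng went to 0.642 of its level in pHes1_ENCs and to 2.26 times its level in pHes1_EPCs. The latter, a log2 difference of 1.15, was the only rise past 2-fold with age among the 10 genes, and it was 0.86, 0.95 and 0.89 under 3 other scalings of the libraries, which moved the median of expressed genes by -0.23, -0.16 and -0.15.

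Rfng (chr11:120642059-120645518, minus strand, 8 exons) differed little. Its FPKM was 23.6 in P1 pHes1_ENCs, 16.7 in P1 pHes1_EPCs, 23.8 in P4 pHes1_ENCs and 21.4 in P4 pHes1_EPCs. P1 pHes1_EPCs stood below the other libraries, whose intervals overlapped. The log2 differences were -0.47 at P1 and -0.14 at P4.

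As a result the Fringe make-up differed between the fractions. Mfng was the first of the 3 genes in both pHes1_ENC libraries, with 51.7% of the summed Fringe FPKM at P1 and 50.9% at P4. In P4 pHes1_ENCs, however, the intervals of Mfng and Rfng overlapped. Lfng was the first in both pHes1_EPC libraries, with 67.9% and 51.5%. In pHes1_ENCs the Lfng share was 20.3% at P1 and 5.75% at P4, and the Rfng share was 28.03% and 43.4%. In pHes1_EPCs the Mfng share was 19.0% at P1 and 34.9% at P4, and that of Rfng was 13.1% and 13.6%. The Lfng to Mfng ratio was thus 0.392 and 0.113 in pHes1_ENCs and 3.58 and 1.48 in pHes1_EPCs, at P1 and P4.

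**Figure D2:**
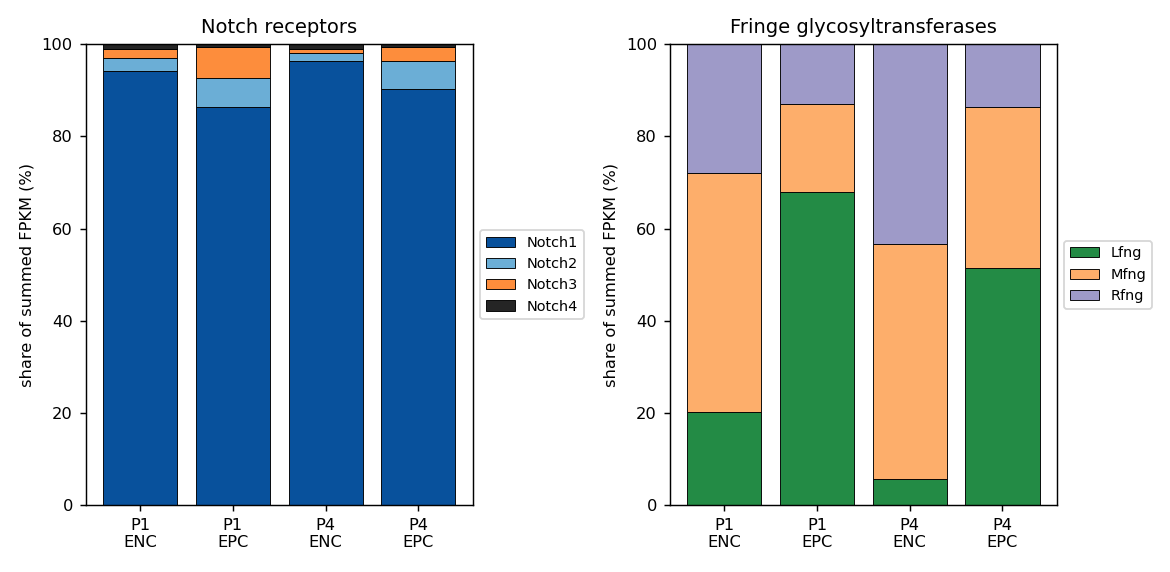
Share of each gene in the summed FPKM of the 4 Notch receptors (left) and of the 3 Fringe genes (right), in percent, with 1 stacked bar for each library. Notch1 fills 86.3% to 96.4% of the receptor bars, and Lfng fills 67.9% and 51.5% of the Fringe bars of pHes1_EPCs but 20.3% and 5.75% of those of pHes1_ENCs.

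Nrarp (chr2:25036278-25038852, plus strand, 1 exon) encodes a small ankyrin-repeat protein that Notch induces and that limits Notch signaling in turn. Nrarp FPKM was 24.9 in P1 pHes1_ENCs, 122 in P1 pHes1_EPCs, 8.08 in P4 pHes1_ENCs and 121 in P4 pHes1_EPCs. It was the most abundant of the 10 genes in both pHes1_EPC libraries, where its deposited intervals overlapped between the ages. The FPKM lay above its own interval in both. Its log2 difference with age there was -0.01 as deposited and -0.41 at the lowest under the alternatives in processing. The ratio was 4.89 (4.42 to 5.37) at P1 and 14.9 (12.5 to 17.0) at P4, with log2 differences of 2.25 and 3.75. The wider difference at P4 went with the pHes1_ENC level, which was 0.325 of that at P1.

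Rbpj (chr5:53947018-54048684, plus strand, 11 exons) encodes the DNA-binding protein on which all 4 receptors act. Rbpj FPKM was 24.6 in P1 pHes1_ENCs, 18.2 in P1 pHes1_EPCs, 15.4 in P4 pHes1_ENCs and 17.7 in P4 pHes1_EPCs. The P1 pHes1_ENC level was the highest of the 4, and the pHes1_EPC levels of the 2 ages had overlapping intervals. The log2 differences were -0.42 and 0.19 at the 2 ages, and the later one was -0.11 when all libraries were rescaled to the same total. Maml1 (chr11:50069137-50105838, minus strand, 5 exons), which encodes a Mastermind coactivator, was at 11.5 and 11.7 in pHes1_ENCs of P1 and P4 and at 10.01 and 10.2 in pHes1_EPCs. The Maml1 intervals overlapped within each age and within each fraction. Its log2 difference was -0.18 at both ages.

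In P1 pHes1_EPCs the order of levels was Nrarp, Notch1, Lfng, Mfng, Rbpj, Rfng, Maml1, Notch3, Notch2 and Notch4, and the neighbors Rbpj and Rfng, and Notch3 and Notch2, had overlapping intervals. In P4 pHes1_EPCs the first 4 were the same, and Rfng and Rbpj were the only neighbors whose intervals overlapped. In P4 pHes1_ENCs the order was Notch1, Mfng, Rfng, Rbpj, Maml1, Nrarp, Lfng, Notch2, Notch4 and Notch3. There the neighbors Mfng and Rfng, Notch2 and Notch4, and Notch4 and Notch3 had overlapping intervals, but Notch2 and Notch3 did not. In P1 pHes1_ENCs Nrarp and Lfng held the third and the sixth place. Lfng and Nrarp therefore stood below Maml1 in 1 library, P4 pHes1_ENCs, and above Rbpj in both pHes1_EPC libraries.

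**Figure D3:**
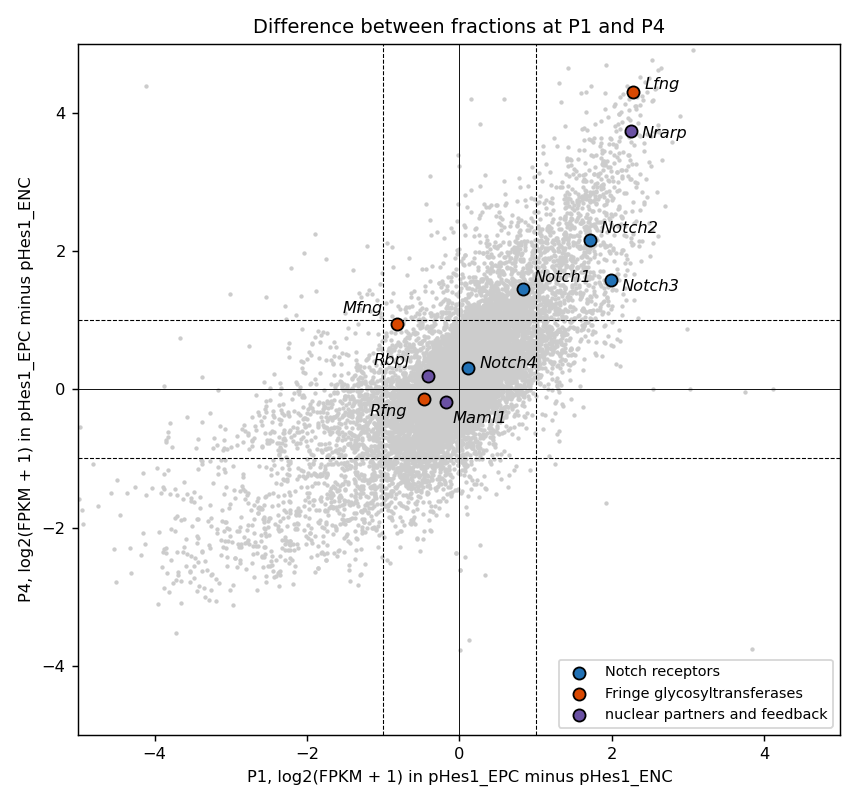
Log2(FPKM + 1) in pHes1_EPCs minus pHes1_ENCs at P1 (horizontal axis) against the same at P4 (vertical axis), with the 10 genes in color over the 12940 expressed genes in grey, both axes running from -5 to 5 (genes outside are not drawn), and dashed lines at the 2-fold rule. Lfng (2.28 and 4.30) and Nrarp (2.25 and 3.75) lie at the upper right, and Mfng (-0.82 and 0.95) and Rbpj (-0.42 and 0.19) lie left of 0 and above 0.

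The promoters of Lfng and Nrarp are shown because these 2 genes had the largest log2(FPKM + 1) differences between the fractions, and that of Rbpj is shown as one of a gene that differed little. The sequences are the 250 bases before the RefSeq transcription start, read in the direction of the gene (GRCm38.p6, a later build than that of the gene positions above), and 9 of the 10 genes had an entry, Rbpj 2. Capitals mark TGGGAA, the core of the RBPJ site, which reads TTCCCA from the other strand. They also mark the longer GTGGGAA that holds this core and the palindrome CACGTG, a site of the Hes type. The fourth motif marked is the related CACGCG, and its reverse reads CGCGTG. Positions count back from -1, the base before the start.
Lfng, chr5:140607091-140607340, plus strand: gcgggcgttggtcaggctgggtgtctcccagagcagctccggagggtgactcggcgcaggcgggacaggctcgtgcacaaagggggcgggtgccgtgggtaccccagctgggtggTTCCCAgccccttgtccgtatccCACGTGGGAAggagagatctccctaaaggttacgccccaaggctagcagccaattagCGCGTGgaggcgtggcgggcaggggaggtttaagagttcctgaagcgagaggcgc
Nrarp, chr2:25180508-25180757, plus strand: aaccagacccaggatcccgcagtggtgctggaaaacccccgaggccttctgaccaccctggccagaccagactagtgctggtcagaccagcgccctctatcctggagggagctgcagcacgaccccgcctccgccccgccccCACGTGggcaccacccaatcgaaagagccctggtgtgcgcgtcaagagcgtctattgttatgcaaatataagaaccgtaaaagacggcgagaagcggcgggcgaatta
Rbpj, chr5:53590096-53590345, plus strand: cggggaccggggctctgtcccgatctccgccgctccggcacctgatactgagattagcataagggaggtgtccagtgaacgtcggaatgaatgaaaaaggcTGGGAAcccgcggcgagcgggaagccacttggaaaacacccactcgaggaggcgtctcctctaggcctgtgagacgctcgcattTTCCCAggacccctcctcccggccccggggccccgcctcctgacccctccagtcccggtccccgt

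In the Lfng window TGGGAA was found at -135 to -130 on the minus strand and at -108 to -103 on the plus strand. The second match extends to GTGGGAA at -109 to -103 and shares its first bases with a CACGTG at -112 to -107, and CACGCG lies at -55 to -50 on the minus strand. The Nrarp window held CACGTG at -108 to -103 and none of the other motifs. The Rbpj window held TGGGAA at -149 to -144 and, on the minus strand, at -65 to -60. Notch2 and Rfng each held 1 CACGCG, at -42 to -37 and at -168 to -163, and the windows of Notch1, Notch3, Notch4 and Maml1 held no match. Of 32851 RefSeq promoter windows of this length, 21.6% held TGGGAA, 5.42% held GTGGGAA, 6.02% held CACGTG and 7.62% held CACGCG. Among the 9 genes with an entry, TGGGAA was found at Lfng and Rbpj, GTGGGAA at Lfng, CACGTG at Lfng and Nrarp, and CACGCG at Lfng, Notch2 and Rfng.

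Between P1 and P4 the median change was larger in pHes1_ENCs. There 2 of the 10 genes were more than 2-fold lower at P4, Lfng (log2 difference -2.12) and Nrarp (-1.51), and 0 were higher, beside 5.94% lower and 2.77% higher of all genes and 10% and 4.67% of expressed genes. The receptors Notch1, Notch2 and Notch3 were at -0.92, -0.85 and -0.87. Without a pseudocount 4 genes fell more than 2-fold, Notch2 and Notch3 in addition, since these were at low FPKM, where the pseudocount weighs most, and under quantile normalization Notch1 passed the rule (-1.14). The median over the 10 genes was -0.75, against -0.01 over expressed genes. In pHes1_EPCs 1 gene was higher (Mfng) and 1 was lower (Notch3), beside 4.17% and 2.57% of all genes and 7.04% and 4.33% of expressed genes, and the median was -0.07 against 0.17. On the deposited scale Lfng, Nrarp, Rbpj, Maml1 and Notch4 had intervals in pHes1_EPCs that overlapped between the ages. The share of all genes with such overlaps was not computed. These age comparisons use the same 4 libraries as the comparisons of the fractions and are not independent of them.

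**Figure D4:**
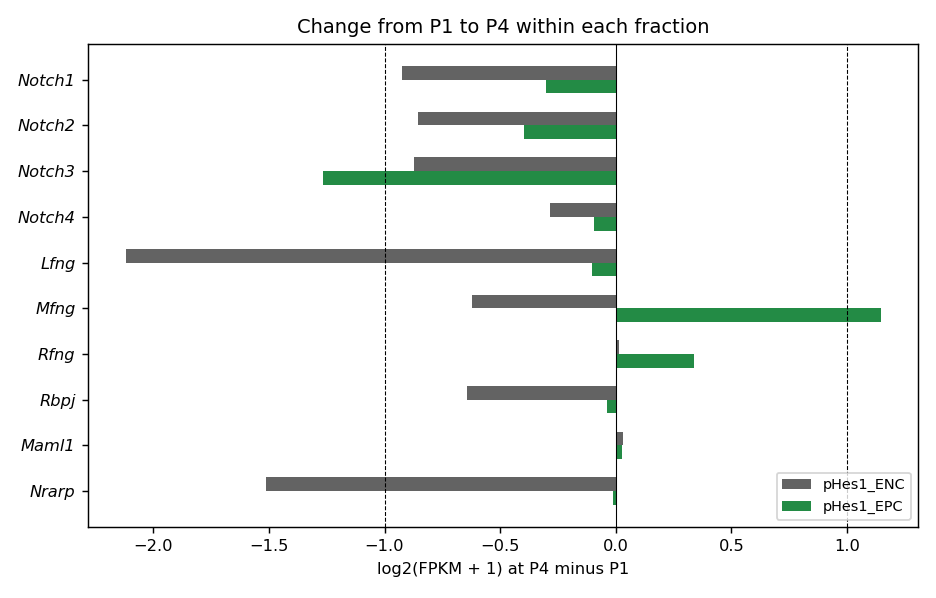
Log2(FPKM + 1) at P4 minus P1 (horizontal axis) for the 10 genes (vertical axis), with 1 grey bar for pHes1_ENCs and 1 green bar for pHes1_EPCs, each a difference of 2 libraries, and dashed lines at the 2-fold rule. The grey bars of Lfng (-2.12) and Nrarp (-1.51) pass the line on the left, the green bar of Notch3 (-1.27) passes it on the left and that of Mfng (1.15) on the right.

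Of 58 other genes of the pathway, taken from a fixed list of ligands, processing enzymes, nuclear cofactors and targets, 7 were higher and 9 lower in pHes1_EPCs at P1, and 14 were higher and 10 lower at P4. The median differences of the 58 genes were -0.14 and 0.25. All 58 reached an FPKM of 1 in some library. Among all expressed genes 10.3% were higher and 11.5% lower at P1, and 16.6% higher and 9.15% lower at P4. The medians of expressed genes were 0.02 and 0.15, and the same shares stand beside each count by role below. Of the 5 Hes and Hey repressor genes, 4 were higher at each age (Hes1, Hes5, Hey2 and Heyl), and the medians of the 5 were 2.15 and 3.69. These counts and medians include Hes1, so they are in part set by the sort. Hes1, whose promoter fragment defined the sort, was at 16.6 and 3.59 in pHes1_ENCs and at 105 and 93.5 in pHes1_EPCs. Hes5 was at 64.8 and 16.3 in pHes1_ENCs and at 282 and 324 in pHes1_EPCs. Every Hes5 value lay above its own interval, which in P4 pHes1_EPCs ran from 268 to 283. So did every Hes1 value except that in P4 pHes1_ENCs. Like Lfng and Nrarp, both repressors had a deposited pHes1_ENC level that was lower at P4 and a deposited pHes1_EPC level within 1.15 times of that at P1.

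Of the 8 genes listed as ligands, 5 were lower in pHes1_EPCs at P1 (Dll3, Dll4, Jag2, Dlk2 and Dner) and 0 were higher. Among expressed genes 11.5% were lower and 10.3% higher at this age. Dll4 was at 35.3 in pHes1_ENCs and 6.08 in pHes1_EPCs, a log2 difference of -2.36. At P4 its levels were 7.75 and 8.28, with overlapping intervals. Dll1 was at 49.5 and 48.7 at P1, with overlapping intervals, and at 13.1 and 89.9 at P4, a ratio of 6.87 (6.04 to 7.60). At P4, 1 ligand was higher and 2 were lower. Ligands and receptors thus differed in the sign of their medians at P1, with -1.48 for the 8 ligands and 1.27 for the 4 receptors. Among these genes Dll1 was at -0.02, Notch1 at 0.83 and Notch4 at 0.12. At P4 both medians were positive, 0.23 for the ligands and 1.52 for the receptors. These differences were not tested.

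The other roles were mixed, and pairs of levels are given as FPKM in pHes1_ENCs and then pHes1_EPCs. Of 4 genes for ligand endocytosis, 1 was higher and 1 lower at P1, and 1 was higher and 2 lower at P4. The ubiquitin ligase genes Neurl1a and Mib1 had the largest differences there, Neurl1a with 6.47 and 2.00 at P1 and Mib1 with 21.0 and 4.70 at P4. Neither of the 2 receptor O-glycosylation genes passed the rule at P1. At P4 Poglut1, which adds O-glucose to receptors, was higher with 11.4 and 25.5. Pofut1, which adds the O-fucose that Fringe extends, was at 9.23 and 15.1 at P1, and its P4 levels were 10.03 and 12.3. Of 10 genes for receptor cleavage only Furin, the convertase that cuts the receptor on its way to the surface, passed the rule, with 21.1 and 9.44 at P1, then 37.5 and 13.4 at P4, lower in pHes1_EPCs at both ages.

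Among nuclear cofactors, 0 of 7 coactivator genes passed the rule at P1, and 2 were higher and 2 lower at P4. The acetyltransferase genes Kat2a and Ep300 had the largest differences in each direction at P4, Kat2a with 8.33 and 21.9 and Ep300 with 27.0 and 12.1. Of 11 corepressor genes 1 was lower at P1, Ctbp2 with 67.6 and 32.4. At P4, 1 was higher and 2 were lower, and Fhl1 had the largest difference with 16.3 and 67.4, as a gene level that does not separate splice forms. Of 11 genes for receptor trafficking and turnover 2 were higher and 1 lower at P1 and 4 higher and 1 lower at P4. Dtx4, a Deltex ubiquitin ligase gene, was at 21.8 and 95.1 at P1, and at P4 its levels were 6.33 and 64.0. Numbl, which encodes an inhibitor of Notch related to Numb, was at 26.3 and 5.23 at P1, followed by 32.5 and 17.7 at P4.

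**Figure D5:**
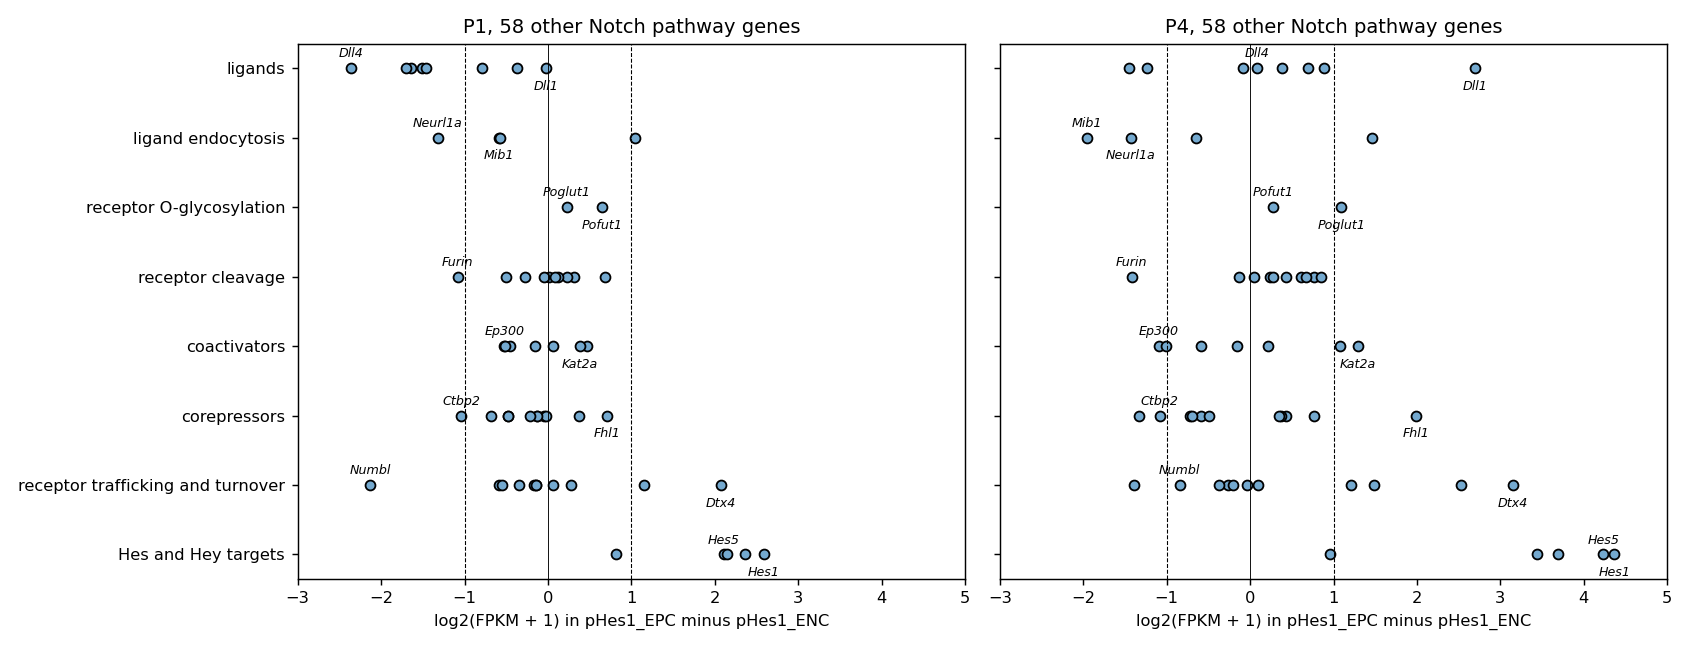
Log2(FPKM + 1) in pHes1_EPCs minus pHes1_ENCs (horizontal axis) of 58 other Notch pathway genes at P1 (left) and P4 (right), by role (vertical axis), where each point is 1 gene in 2 libraries and dashed lines mark the 2-fold rule. The Hes and Hey genes lie at 0.81 to 2.59 in the left panel and at 0.96 to 4.37 in the right one, where the ligands run from -1.45 to 2.69 after -2.36 to -0.02 on the left.

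The genes whose pattern over the 4 libraries was most like that of each of the 7 genes that reached an FPKM of 10 were searched among the 8403 genes with such a level, by the Euclidean distance of log2(FPKM + 1) centered on the median of each gene. The nearest to Lfng were Zfp36l1 (distance 0.09), Col23a1 (0.20) and Sox8 (0.21), a Müller glia marker, and Hes1 and Hes5 stood at place 6 and 8. Nearest to Nrarp were the repressor gene Heyl (0.18), BC064078 (0.23) and Id2 (0.26), with Hes5 at place 13 and Hes1 at place 47. Only 14 genes lay within 0.5 of Lfng and 27 within 0.5 of Nrarp. For Notch1 the nearest were Ccdc61 (0.08), Pitrm1 and Adss (both 0.18), and 154 genes lay within 0.5. For Mfng they were Pfkfb3 (0.13), Nradd (0.15) and Ptp4a1 (0.17), with 70 genes within 0.5. Hes1 and Hes5 stood far from both, at places 7529 and 7224 of 8402 for Notch1 and at 8331 and 8261 for Mfng. The Hes1 pattern is itself in part set by the sort.

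Flat patterns had many neighbors. There were 2233 genes within 0.5 of Maml1, with Ddx42, Eps15l1 and Zhx1 first, 1688 of Rfng, with Actr1a, Pik3r2 and Zfp606 first, and 580 of Rbpj, with Ddhd2, Smarca4 and Mtap7d1 first. For Maml1, Rfng and Rbpj, Hes1 and Hes5 stood at places 8270 to 8359 of 8402. Each distance rests on 4 libraries only and describes likeness of level, with no test.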

How the data were processed

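RNA from sorted pHes1_EPCs and pHes1_ENCs at P1 and P4 was measured in 4 libraries. The cDNA was made with random primers, without strand marking, and read as single ends of 36 bases. The authors aligned reads to NCBI37/mm9 with TopHat 2.0.8b, keeping reads with up to 50 positions. They deposited gene FPKM with 95% intervals from Cufflinks 2.1.1. The submitters' processing notes also name bcl2fastq 1.8.4. Read counts, and so the depth, were not used here. The FPKM over all 23021 lines summed to between 342618 and 450080 per library.

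Small RNAs were left out by symbol (797 lines, 731 symbols) and 1 line per symbol was kept, the one with the highest FPKM, which left 21827 genes. Fractions were compared within ages, and ages within fractions, with 1 library per group and no test. The pseudocount was 1. Alternatives were a pseudocount of 0.1, the ratio without one, a minimum FPKM of 1, intervals that do not overlap, lines of a symbol summed, and 3 scalings. Starts of gene positions in the tables count from 0 and were raised by 1. Of 9651 genes whose end equals that of the annotation, 5994 had such a start. Exons come from the mm9 annotation and promoters from RefSeq (GRCm38.p6).

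The 10 genes, the pathway and marker lists and the comparisons were chosen with earlier results of these data known. Named were the 10 genes, Hes1 and Hes5, in each pathway role the gene with the largest absolute difference at P1 and at P4, the 3 genes nearest in pattern to each of the 10 with an FPKM of at least 10, and marker genes that moved with one of them. Python 3.11.15, numpy 2.4.6, pandas 2.3.3 and matplotlib 3.10.9 were used. The code that calls differences was run on simulated counts with changes planted in genes with a mean FPKM of at least 10. The simulation held counting noise only. It therefore cannot speak to variation between animals or sorts, or to changes of genes at lower FPKM.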

Additional observations from a re-analysis of the deposited data

Results flagged for a closer look

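The 10 genes and the other pathway genes named by the rule were searched for differences that turned. In the comparisons below the direction of a difference was opposite at the 2 ages or in the 2 fractions, and the Cufflinks intervals did not overlap in either. Each group was 1 library, so the difference between the differences was not tested. In pHes1_EPCs minus pHes1_ENCs on the log2(FPKM + 1) scale, Mfng was at -0.82 at P1 and 0.95 at P4. Rbpj was at -0.42 and 0.19, and its P4 value turned to -0.11 after rescaling to the same total.

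From P1 to P4, Mfng changed by -0.62 in pHes1_ENCs and by 1.15 in pHes1_EPCs. The ligand genes Dll4 and Dll1 had changes of -2.05 and -1.84 in pHes1_ENCs and of 0.39 and 0.87 in pHes1_EPCs. Hes5 was at -1.93 and 0.20, Poglut1 at -0.48 and 0.39, and Ep300, in the other order of signs, at 0.33 and -0.24. Pathway genes outside the rule, named after their values were seen, met the same condition. Among them were the ligand genes Dll3 (-1.36 and 0.98) and Dner (-1.23 and 1.12). Genes of other roles did so too, such as Fbxw7 (-1.88 and 0.38), Hey2 (-0.88 and 0.41) and Aak1 (0.46 and -0.38). In pHes1_EPCs minus pHes1_ENCs, Dll3 (-1.64 and 0.69), Dner (-1.46 and 0.89) and Dtx1 (-0.34 and 1.21) turned between the ages. The share of pathway genes, or of all genes, that met the condition was not computed.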

How the results depend on the processing

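With 1 library per group, no replicate could be left out. No paired analysis was possible because each group held 1 library, the groups shared no replicate numbers past the first, and the 2 ages are conditions and not replicates. The counts of the 10 genes past 2-fold between the fractions stayed within 1.5 times under all alternatives at both ages. From P1 to P4 in pHes1_ENCs, the genes that were lower went from 2 to 4 with a pseudocount of 0.1 and with the ratio without a pseudocount. In pHes1_EPCs the gene that was higher, Mfng, left the count (1 to 0) under 3 scalings, namely rescaling to 1 total, median of ratios and quantile normalization. Of the 58 other pathway genes, the number higher at P4 in pHes1_ENCs went from 0 to 1 (pseudocount of 0.1), 2 (ratio) and 1 (quantile normalization). In pHes1_EPCs the number higher went from 3 to 7 (pseudocount of 0.1), 8 (ratio) and 1 (same total), and the number lower from 1 to 2 under these 3 and the other 2 scalings. Smaller pseudocounts let genes of low FPKM pass the rule. For the scalings, the cause was not tested. They moved the median of expressed genes by -0.27 (same total), -0.17 (median of ratios) and -0.19 (quantile) in the P4 comparison of the fractions, and by -0.23, -0.16 and -0.15 for age in pHes1_EPCs. Of 320 values of single genes under the alternatives, 64 moved by more than their interval and 0 of the called ones changed sign. In P4 pHes1_ENCs the interval half-width was 24.6% of the FPKM for Notch4 and 24.8% for Notch3, the widest among the 10 genes.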
